A study of Mus musculus with 30 samples.

Results

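Mouse embryonic stem cells that had lost doxycycline for 3 days were given it back for 12 h, and their gene expression was compared with that of cells left without it for the same 12 h. The comparison holds 6 of the 30 arrays of the series, the 3 arrays labelled day 3 +12h Dox (pulsed) and the 3 labelled day 3 -12h Dox (time-matched control), and it was run over all 23385 transcript clusters that carry a gene symbol. A transcript cluster is the set of probes that an Affymetrix Mouse Gene 1.0 ST array holds for 1 transcription unit, and its values are log2 signals.

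All groups come from 1 clone, NgR, whose genotype label is AINV15_Nanog_Rescue Clone. It was derived from Ainv15 cells, which express the reverse tetracycline transactivator, and it makes Nanog when doxycycline is present. Primary fibroblasts of mouse embryos served as its feeder layer, and doxycycline was present at 1 ug/ml until withdrawal. The labels give no separate concentration for the pulse and do not describe the state of the endogenous Nanog gene. Beside the 2 groups compared, the text uses day 0 +Dox (doxycycline present), day 3 -Dox (3 days after withdrawal, taken at the start of the 12 h) and the pulsed and control groups of days 1 and 5, with 3 arrays in each group. The series has no control line without the inducible Nanog, and effects of the drug itself and of Nanog cannot be told apart. The labels do not say that replicates were separate cultures, and the p-values then measure only the spread between these arrays, which may be technical.

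Nanog is a homeodomain transcription factor of the naive pluripotent state, the state of the early epiblast of the blastocyst. It acts with Pou5f1 (Oct4), Sox2, Esrrb and Klf4, and it represses genes of the primitive endoderm. When its level drops, stem cells do not leave pluripotency at once but become more prone to express genes of the primed epiblast and of early lineages. A short return of the factor is used to separate genes that follow it within hours from those that do not.

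The promoter windows of 3 genes that the comparison turned on are shown first: Nanog, the only gene called higher, Lpar4, which had the largest called fall, and Ap3b2, the lowered gene that stayed called under the most settings. Each window is RefSeq sequence of GRCm38.p6 and runs from 250 bases before to 50 bases after an annotated start. Nanog lies at chr6:122707239-122707538 on the plus strand, Lpar4 at chrX:106920375-106920674 on the plus strand and Ap3b2 at chr7:81493876-81494175 on the minus strand. Capitals mark matches to the POU letters ATGCAAA and the SOX letters ACAATG, searched on both strands.
Nanog promoter: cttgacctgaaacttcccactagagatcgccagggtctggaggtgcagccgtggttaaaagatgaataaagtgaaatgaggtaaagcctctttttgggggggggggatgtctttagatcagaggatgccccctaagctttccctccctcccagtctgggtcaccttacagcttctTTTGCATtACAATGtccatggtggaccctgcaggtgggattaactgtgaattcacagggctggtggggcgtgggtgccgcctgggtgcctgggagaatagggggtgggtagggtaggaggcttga
Lpar4 promoter: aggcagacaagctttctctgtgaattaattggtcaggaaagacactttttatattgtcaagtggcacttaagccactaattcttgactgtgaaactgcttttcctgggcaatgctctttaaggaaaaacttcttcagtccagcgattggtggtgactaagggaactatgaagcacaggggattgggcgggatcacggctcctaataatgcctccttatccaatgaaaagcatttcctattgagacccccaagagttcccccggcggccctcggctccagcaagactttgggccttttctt
Ap3b2 promoter: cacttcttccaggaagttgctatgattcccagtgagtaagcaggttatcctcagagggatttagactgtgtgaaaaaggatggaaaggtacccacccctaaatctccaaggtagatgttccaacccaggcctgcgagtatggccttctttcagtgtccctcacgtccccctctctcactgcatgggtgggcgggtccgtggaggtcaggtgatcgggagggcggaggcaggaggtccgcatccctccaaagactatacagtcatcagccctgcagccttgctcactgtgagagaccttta

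In the Nanog window shown, the POU match begins at position -75 from its annotated start and the SOX match at -67. From the other annotated start of Nanog, the same matches begin at -151 and -143. The pair is the known Oct4 and Sox2 element of this promoter. The windows of Lpar4, Flvcr1, Ap3b2, Fgfr2, Slc38a2 and Gja1 held neither of these matches, nor the homeodomain letters TAATGG. Of 32851 promoter windows of the same length, 4.63% held the POU letters, 12.6% the SOX letters and 7.73% the homeodomain letters. A match is a run of letters and not a measured binding site. Windows for Slc40a1 and Wnt8a were not used here.

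Mature microRNAs of a cluster beside Gpc3 on the X chromosome are shown as well, because 4 of its precursors, with Gpc4, had the 5 lowest pulse changes among the measured neighbours of Hprt. All are on the minus strand of the X chromosome (GRCm38.p6, RefSeq), and capitals mark the seed, bases 2 to 8. miR-106a-5p (chrX:52742541-52742563) and miR-20b-5p (chrX:52742159-52742181) share 1 seed, while miR-19b-3p (chrX:52741991-52742013) and miR-363-3p (chrX:52741697-52741718) each have another.
mmu-miR-106a-5p: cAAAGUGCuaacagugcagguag
mmu-miR-20b-5p: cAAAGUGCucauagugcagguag
mmu-miR-19b-3p: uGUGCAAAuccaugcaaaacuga
mmu-miR-363-3p: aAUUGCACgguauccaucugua

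The 6 arrays carried the markers of embryonic stem cells at high signal. Pou5f1 ran from 11.73 to 12.02 (log2), above 96.6% of clusters, and Dppa5a from 13.51 to 13.61, above 99.8%. Arrays differed more in spread than in centre: their medians lay between 7.56 and 7.59, and the interquartile range was 2.48 to 2.57 in 5 of them but 2.84 in control replicate 2, rank 3 from the widest of the 30 arrays. Markers of feeder fibroblasts had a mean signal of 7.78 to 7.86 in the pulsed arrays and 7.83 to 7.85 in the controls. Of 30 measured fibroblast markers 0 were called, and their median change was -0.01 (log2), against -0.0092 over all tested clusters. In bulk RNA, fewer cells of a type and less RNA per cell cannot be told apart.

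**Figure D1:**
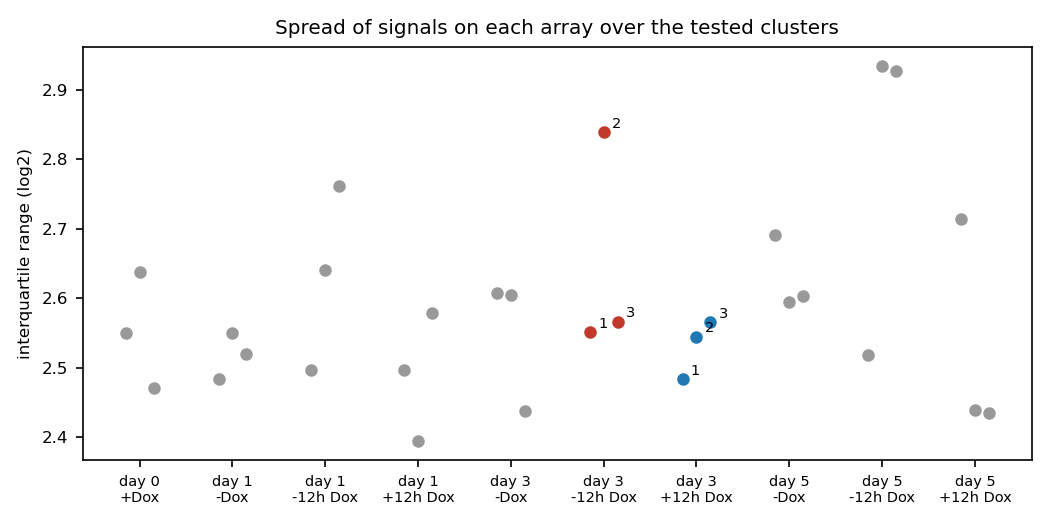
Interquartile range (log2) of the signals on each of the 30 arrays, 1 point per array, by group. Red points are the day 3 controls and blue points the day 3 pulsed arrays, numbered by replicate. Control replicate 2 sits at 2.84 while the other 5 arrays of the comparison lie between 2.48 and 2.57.

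The pulse raised Nanog and lowered 8 genes. A gene was called when limma's Benjamini-Hochberg adjusted p, over all 23385 clusters, was under 0.05. By this rule 9 clusters were called, which is 0.0385% of those tested, with 1 higher (0.00428%) and 8 lower (0.0342%). None of the 9 differed by 2-fold or more. At an unadjusted p under 0.05 there were 3408 clusters (14.6%), of which 1052 were higher (4.5%) and 2356 lower (10.1%). The call count rests on few arrays and on the handling of array spread. Nanog alone was called without control replicate 2, without pulsed replicate 1 or without pulsed replicate 3. There were 3 calls without control replicate 1, 2 without control replicate 3 and 4 without pulsed replicate 2. With the interquartile range of each array as a covariate there were 22 higher (0.0941%) and 18 lower (0.077%) calls, and after quantile normalization 14 higher and 12 lower. The main fit takes its variance from all 30 arrays, and a fit of only the compared groups called Nanog alone. Centring each array on its median left Nanog and Ap3b2.

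Nanog followed the drug in every array. Its signal was 10.89, 11.02 and 10.99 in the pulsed arrays and 10.12, 10.18 and 10.21 in the controls. The lowest pulsed array lay above the highest control. The change was 0.80 ± 0.080 (log2, SE, n = 3 per group), a 1.74-fold rise (limma adjusted p = 4.61e-06), and it remained called in all 15 alternative settings. The signal was 11.03 at day 0 and 10.51 after 3 days without the drug, so the pulsed mean of 10.97 lay close to the day 0 level. No test of pulsed cells against day 0 is given here. Over the 12 h the controls had fallen by 0.34 from the 3-day level (adjusted p = 0.0223), and the pulsed arrays had risen by 0.46 (adjusted p = 0.00101). In these contrasts 1.69% of all clusters were called for the controls (1.29% higher) and 3.4% for the pulsed arrays (1.35% higher and 2.05% lower). They and the pulse share arrays and are given side by side only. One cluster cannot tell transgene from endogenous Nanog RNA.

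Receptors and a ligand were among the 8 lowered genes. Lpar4, a receptor for lysophosphatidic acid, had signals of 8.26, 8.63 and 8.45 in the pulsed arrays and 9.02, 9.24 and 9.05 in the controls. All pulsed arrays were below all controls, and the change was -0.66 ± 0.12 (adjusted p = 0.0281). The pulsed mean of 8.45 was near the 8.31 of day 0, and the control mean was 9.11.

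Wnt8a, a secreted Wnt ligand, read 7.49, 7.60 and 7.54 in the pulsed arrays and 7.999, 8.28 and 8.06 in the controls, again without overlap. Its change was -0.57 ± 0.10 (adjusted p = 0.0281). The control group had risen by 0.44 over the 12 h (adjusted p = 0.0233), while the pulsed group differed from the 3-day level by -0.13 (adjusted p = 0.659). Its mean was 7.54 in pulsed cells and 7.67 at the start of the pulse, and it was the 1 lowered gene of the 8 not called below that start.

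Fgfr2, a receptor for fibroblast growth factors that is prominent in trophectoderm and primitive endoderm, read 8.53, 8.52 and 8.56 in the pulsed arrays and 8.84, 8.99 and 8.89 in the controls. The pulsed arrays differed by less than the gap between the groups. The change was -0.37 ± 0.067 (adjusted p = 0.0281).

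Transporters made up 3 of the lowered genes. Slc40a1 encodes ferroportin, the cellular iron exporter. It read 10.40, 10.52 and 10.57 in the pulsed arrays and 10.92, 10.98 and 10.97 in the controls, a change of -0.46 ± 0.083 (adjusted p = 0.0281). All pulsed arrays lay below the controls but far above the day 0 mean of 8.17, since the gene had risen by 2.71 over 3 days of withdrawal.

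Flvcr1, known as a heme exporter, read 7.71, 7.57 and 7.76 in the pulsed arrays and 8.17, 8.21 and 8.12 in the controls, without overlap. Its change was -0.49 ± 0.086 (adjusted p = 0.0281). The other, brighter cluster of the gene differed by -0.14 (adjusted p = 0.294) and was not called, so the call of Flvcr1 rests on the dimmer of 2 clusters that disagree. Slc38a2, a neutral amino acid transporter, read 11.20, 11.27 and 11.15 in the pulsed arrays and 11.51, 11.64 and 11.54 in the controls. The groups were separate, with a change of -0.36 ± 0.060 (adjusted p = 0.022), and the pulsed mean of 11.21 was under the day 0 mean of 11.35.

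The remaining lowered genes act in membrane traffic and cell contact. Ap3b2, a subunit of the neuronal form of the AP-3 adaptor complex, read 8.34, 8.40 and 8.37 in the pulsed arrays and 8.76, 8.96 and 8.79 in the controls. The groups did not overlap, and the change was -0.47 ± 0.072 (adjusted p = 0.00776). Gja1, connexin 43 of gap junctions, read 11.29, 11.28 and 11.24 in the pulsed arrays and 11.55, 11.70 and 11.59 in the controls, a change of -0.34 ± 0.066 (adjusted p = 0.0484). It was the call nearest the threshold. Of 15 alternative settings, the call was kept in 11 for Ap3b2, 9 for Slc38a2, 8 for Lpar4, 7 each for Slc40a1, Flvcr1, Wnt8a and Fgfr2, and 5 for Gja1.

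**Figure D2:**
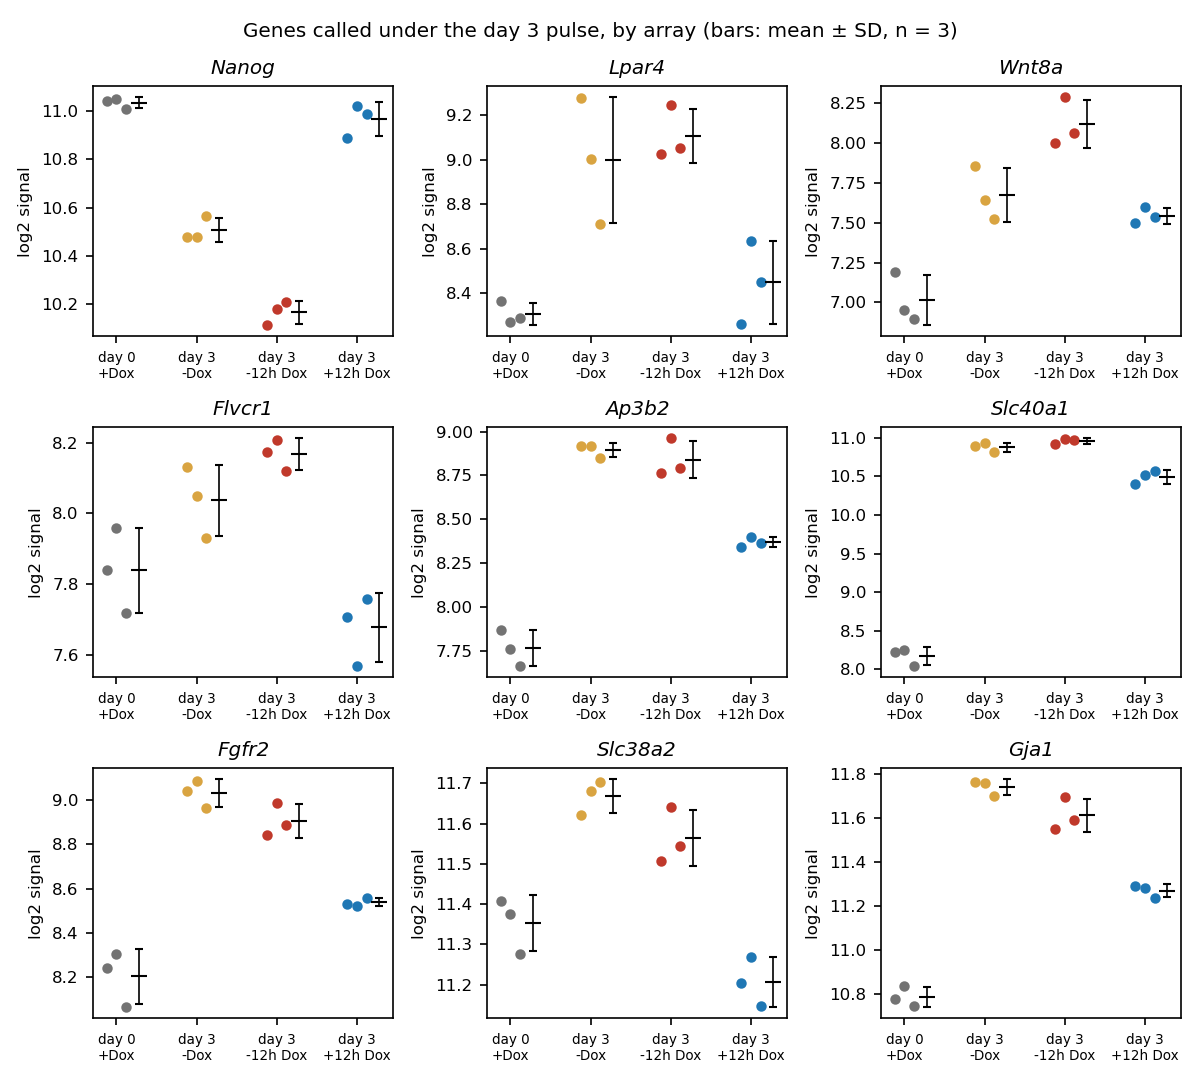
Log2 signal of the 9 called genes in day 0 +Dox, day 3 -Dox, day 3 -12h Dox and day 3 +12h Dox, 1 point per array, with the mean and SD (n = 3) as bars. In each panel the 3 pulsed arrays (blue) and the 3 controls (red) do not overlap, and Slc40a1 stays well above its day 0 mean of 8.17. The vertical scales differ between panels and do not start at 0.

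Of the 8 lowered genes, 7 had been called higher after 3 days of withdrawal (19.6% of all clusters were), the exception being Flvcr1 (0.20, adjusted p = 0.0782). The withdrawal rises were 2.71 for Slc40a1, 1.13 for Ap3b2, 0.95 for Gja1, 0.82 for Fgfr2, 0.69 for Lpar4, 0.66 for Wnt8a and 0.31 for Slc38a2. Against the 3-day level itself, 7 of the 8 were called lower in pulsed cells (2.05% of all clusters were). That contrast reuses the pulsed arrays by which the 8 were chosen, so the count is no separate support. The order of the pulse changes was not that of the withdrawal changes: Slc38a2 had risen by 0.31 and fell by 0.36 under the pulse, while Slc40a1 had risen by 2.71 and fell by 0.46.

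None of the 12 core regulators followed Nanog past the threshold. Prdm14, a factor that holds back FGF signalling and DNA methylation in naive cells, read 8.23, 8.14 and 8.32 in the pulsed arrays and 7.95, 7.91 and 7.76 in the controls. The groups were separate, and the change was 0.36 ± 0.075 (adjusted p = 0.0705). Zfp42 (Rex1), a widely used naive marker, read 10.86, 10.79 and 10.93 against 10.47, 10.51 and 10.53. It too was separate, at 0.36 ± 0.097 (adjusted p = 0.148). With the interquartile range as a covariate both passed, at 0.40 (adjusted p = 0.00466) for Prdm14 and 0.44 (adjusted p = 0.00661) for Zfp42.

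Klf4, Esrrb and Klf2 had higher signals in all pulsed than in all control arrays, without being called. Klf4 differed by 0.31 (adjusted p = 0.171), Esrrb by 0.27 (0.246) and Klf2 by 0.14 (0.391). Pou5f1 (0.13), Sox2 (0.06), Tbx3 (0.05), Gata6 (0.12) and Dppa3 (0.23) overlapped between the groups. The epiblast factor Otx2 (-0.24, adjusted p = 0.299) and the growth factor Fgf5 (-0.33, adjusted p = 0.18) were lower in all pulsed arrays, and neither was called. Over all tested clusters, the pulsed arrays were all above the controls for 8.12% and all below for 16.4%. Dppa3 is uncertain, since it is known to have pseudogene copies, and its other cluster differed by 0.24 (adjusted p = 0.517).

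**Figure D3:**
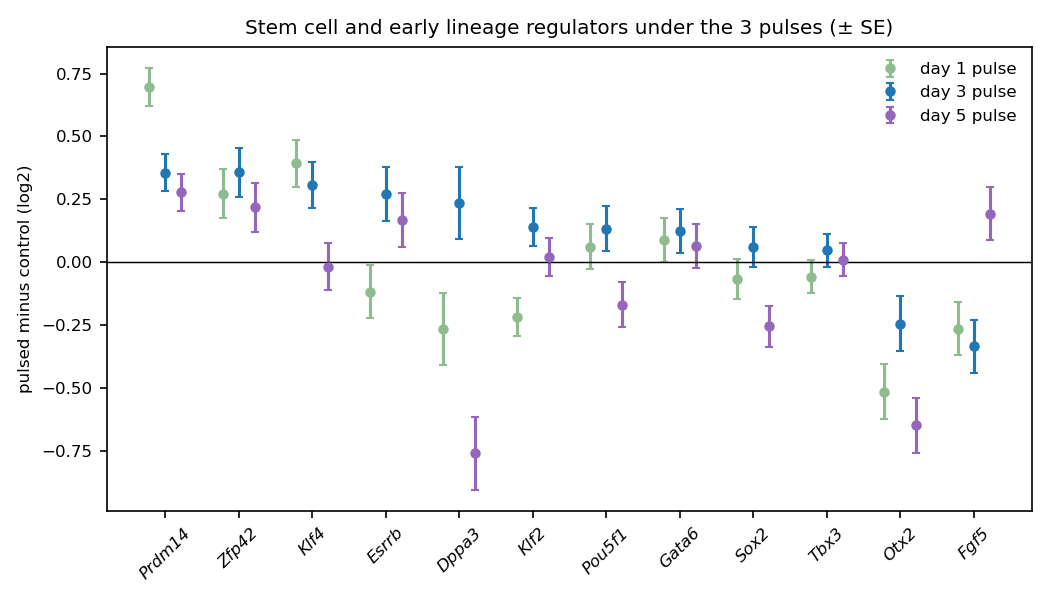
Change under the pulse (pulsed minus control, log2, ± SE, 3 arrays per group) of the 12 core regulators on days 1, 3 and 5. On day 3 Prdm14 and Zfp42 stand at 0.36 and Fgf5 at -0.33, and none of the 12 was called.

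Most naive pluripotency genes had higher signals in the pulsed arrays, and none passed the test. Of 25 listed genes 23 were measured, Nanog not among the 25. None was called (background 0.00428% higher), 19 had a change above 0 (47.3% of all clusters did) and 4 below, and the median was 0.20 against -0.0092 over all clusters. The pulsed arrays were all above the controls for 11 of the 23, a share to be set beside 8.12% of all clusters, and all below for 2 (16.4% of all clusters), Pecam1 and Nr5a2. The median was 0.21 after centring, 0.25 after quantile normalization and 0.25 with the covariate. The mean signal of the list was 9.21 to 9.26 in pulsed arrays and 9.04 to 9.14 in controls. Over 3 days of withdrawal 18 of the 23 had been called lower (14.3% of all clusters were) and 1 higher (19.6%). The members of this and the other lists were chosen with earlier results of these data known. Shares of a list set beside those of all clusters are therefore no separate support.

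Single members ranged widely. Calcoco2, an autophagy receptor high in naive cells, differed by 0.37 (adjusted p = 0.321), the highest of the list. Its other, dimmer cluster differed by 0.46 (adjusted p = 0.0988). With the covariate the dimmer cluster was called (0.52, adjusted p = 0.0211) and the brighter was not. Fgf4, the autocrine growth factor of the epiblast, differed by 0.27 (0.224). Eras, a Ras-family protein of stem cells, differed by 0.26 (0.303) and Zfp57, a guardian of imprints, by 0.21 (0.18). Tfcp2l1 (-0.01), Fbxo15 (-0.0024) and Klf5 (0.05) were near 0. Mras, a Ras-related GTPase, had changed by -2.40 over withdrawal and differed by 0.13 (adjusted p = 0.427), with overlapping arrays. Of the general pluripotency genes, 0 of 21 were called, 6 were above 0 and 15 below, and the median was -0.07.

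Genes of the primed or formative epiblast held 1 call in 18, Wnt8a, where 0.0342% of all clusters were called lower. Their median was -0.05, 13 were below 0 (52.7% of all clusters), and 6 were lower in all pulsed arrays (16.4% of all clusters). Dnmt3b (-0.29) and Dnmt3a (-0.26), the de novo DNA methyltransferases, were among these 6 and were not called. Pou3f1 differed by -0.05 and Dnmt3l by 0.01.

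Trophectoderm markers held 1 call in 20, Fgfr2, where 0.0342% of all clusters were called lower. The median was -0.13, and 17 were below 0. Here 6 did not overlap, all lower, as were 16.4% of all clusters. The keratins of simple epithelium were low in this direction without being called: Krt7 differed by -0.28 (adjusted p = 0.0988), Krt19 by -0.31 (0.207), Krt8 by -0.16 (0.405) and Krt18 by -0.12 (0.459). The defining factors Cdx2 (-0.05) and Eomes (-0.13) overlapped.

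Primitive endoderm markers had 14 of 27 above 0, 13 below and a median of 0.01, and none was called. Dab2, an endocytic adaptor of that lineage, was the lowest at -0.46 (adjusted p = 0.113) and Gata4 the highest at 0.29 (0.245). Primitive streak and mesoderm (21 measured, median 0.06), neural (22, median 0.02) and germline (18, median -0.04) markers held 0 calls. The 2-cell-like list had 5 measured genes, 0 called, and its lowest member, Usp17ld, belongs to a family of near-identical copies whose value is uncertain.

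Among signalling genes, the FGF and ERK list held 1 call in 21, the receptor Fgfr2, where 0.0342% of all clusters were called lower. It is the same gene as the 1 trophectoderm call. Spry2, a feedback inhibitor of the pathway, differed by -0.41 (adjusted p = 0.114), with all pulsed arrays (9.77 to 9.87) below all controls (10.11 to 10.37), although it had not been called in withdrawal (0.23). Ier3, an immediate early gene, stood at the other end with 0.36 (adjusted p = 0.231). Dusp6, Etv4 and Etv5, common readouts of ERK activity, differed by -0.10, 0.01 and 0.02. LIF and STAT3 genes (0 of 15 called, median -0.03), Nodal and BMP genes (0 of 20, -0.03) and Wnt genes (0 of 16, 0.02) had medians near 0. Lefty1 (-0.34) and Nodal (-0.27), an antagonist and its ligand, were lower in all pulsed arrays, and neither was called. Of the 20 Nodal and BMP genes, 4 were lower in all pulsed arrays (16.4% of all clusters) and 3 higher in all (8.12%). The highest of that list was Smad6 at 0.33, also not called.

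In the 5 lists of metabolic, growth and stress genes given first here, most members were below 0, against 52.7% of all clusters, with small changes and no call. The 12 mitochondrial chaperones and proteases were all below 0 (median -0.08, lowest Polg at -0.30). Of 17 p53 targets 16 were below 0 (median -0.14), of 20 ribosome biogenesis genes 15 (median -0.10), and of 16 cholesterol synthesis genes 14 (median -0.11). Of 14 interferon and antigen presentation genes 10 were below 0 and 4 above (median -0.18), with Oasl2 at -0.44 (adjusted p = 0.0788) and Irf1 at -0.32 (0.148). With the interquartile range as a covariate these medians were -0.06, -0.09, -0.06, -0.05 and -0.11. Housekeeping genes had a median of -0.07, 0 of 8 called and 6 below 0. The lean was not particular to the lists above. Below 0 were 11 of 13 mitosis genes, 12 of 15 Myc and G1 regulators and 11 of 15 S phase genes. So were 15 of 22 glycolysis and hypoxia, 14 of 23 ATF4 and serine synthesis, and 13 of 20 Polycomb and DNA methylation genes. Respiratory chain genes had 7 of 15 below 0 and 8 above.

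Genes near Hprt on the X chromosome are of interest because Ainv15 cells are known for an inducible transgene site beside Hprt. The labels do not say where the Nanog transgene of this clone lies. Of 22 listed neighbours 15 were measured and 0 called. Their median was -0.28, 11 were below 0, 8 were lower in all pulsed arrays (16.4% of all clusters) and 1, Hprt itself, was higher in all (8.12%). Over withdrawal 10 of the 15 had been called higher (19.6% of all clusters) and 1, Hprt, lower (14.3%).

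Mir106a, a precursor of the microRNA cluster, read 6.40, 6.65 and 6.47 in pulsed arrays and 7.22, 7.61 and 7.16 in controls. The groups were separate, and the change was -0.82 ± 0.16 (adjusted p = 0.0551). Mir363 differed by -0.79 (adjusted p = 0.173), Mir20b by -0.46 (0.18) and Mir19b-2 by -0.42 (0.301). The precursors other than Mir19b-2 were lower in all pulsed arrays.

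Hprt, the purine salvage enzyme, read 8.19, 8.36 and 8.33 in pulsed arrays and 7.76, 8.09 and 7.83 in controls, a difference of 0.40 (adjusted p = 0.207). Of the 15 measured genes 11 had the opposite sign, among them Gpc4 at -0.49 (adjusted p = 0.0988) and Fam122b at -0.35 (0.148). Fam122c differed by 0.08, and Gpc3, Mir450b and Mir542 were within 0.04 of 0. With the covariate Hprt (0.55, adjusted p = 0.00173) and Mir106a (-0.67, adjusted p = 0.011) passed. MicroRNA clusters read precursors or host transcripts and share near-identical copies, so their values are uncertain. Mir19b-1, whose mature product is also the miR-19b-3p shown above, lies on another chromosome and differed by -0.57 (adjusted p = 0.0786).

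**Figure D4:**
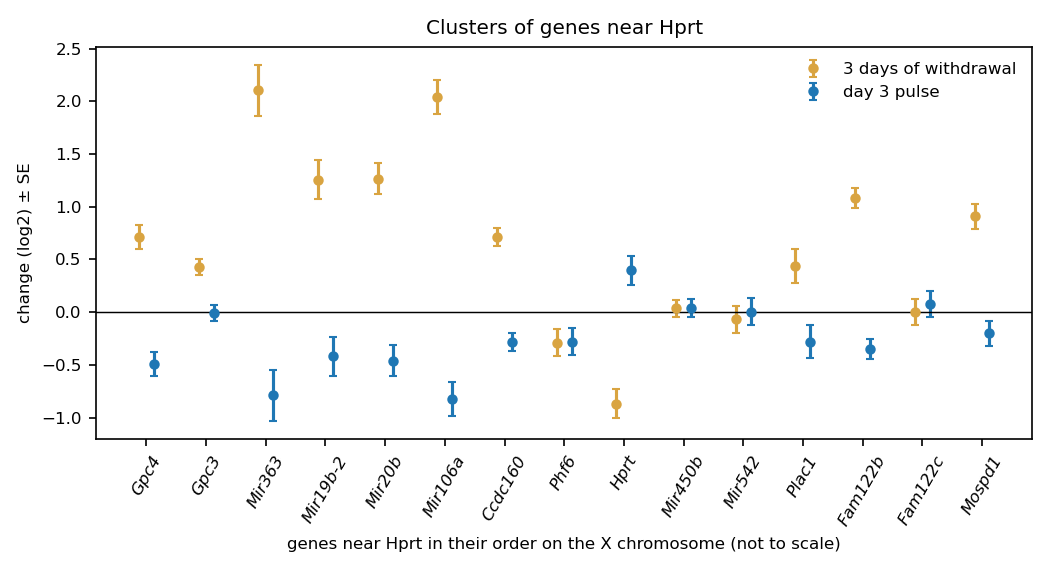
Change in log2 signal (± SE, 3 arrays per group) of the 15 measured genes near Hprt, in chromosome order and not to scale, over 3 days of withdrawal (day 3 -Dox minus day 0 +Dox) and under the day 3 pulse. Mir106a and Mir363 have the lowest pulse changes (-0.82 and -0.79), and Hprt, with 0.40, has the highest.

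Most clusters that had changed over withdrawal had a pulse change of the opposite sign. The 2 contrasts share no array. Of the 7914 clusters called over 3 days of withdrawal (33.8% of those tested), 4580 had risen, and 86.4% of these had a pulse change below 0, with a median of -0.12. Of the 3334 that had fallen, 64.4% were above 0, with a median of 0.05. Over all tested clusters 52.7% were below 0. Among genes with a withdrawal change of at least 2-fold, 183 of 193 risers were below 0 (median -0.26) and 118 of 137 fallers above 0 (median 0.18).

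A line through 0, fitted to the pulse changes against the withdrawal changes with their sign turned, had a slope of 0.20, where 1 would be a full return. Pearson's r across these clusters was -0.64, a description across genes that are not independent. The exact two-sided permutation test over the 20 assignments of the 6 arrays gave p = 0.1, the smallest they can give. The slope was 0.17 with the interquartile range as a covariate. The slope also counts change that went on in the controls over the 12 h and not in the pulsed cells. Nanog, at 0.80 after a withdrawal change of -0.53, lay far above the line, and Mras and Otx2, with withdrawal changes of -2.40 and 1.98, lay nearer to 0 than it.

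**Figure D5:**
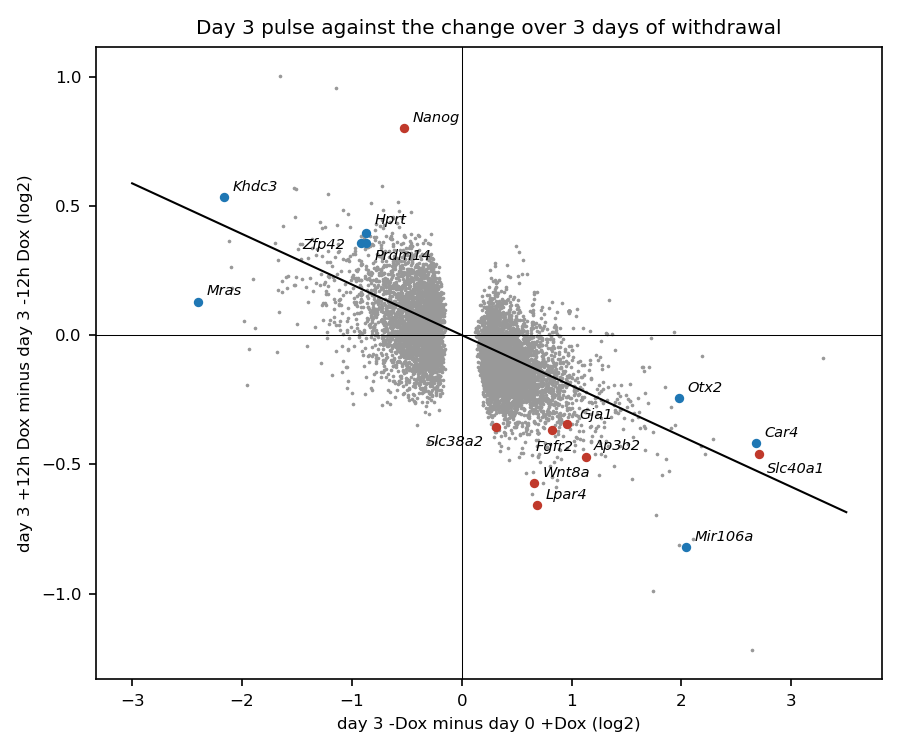
Pulse change on day 3 (vertical, log2) against the change over 3 days of withdrawal (horizontal, log2) for the 7914 clusters called in withdrawal, 1 grey point each. Red points are genes called under the pulse, blue points other named genes, and the black line has the fitted slope of 0.20 with its sign turned. Most points lie at the upper left and lower right, and Nanog sits far above the line.

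The pulse of day 3 was set beside those of days 1 and 5, with which it shares no array. On day 1, 877 clusters were called (3.75%, with 0.547% higher and 3.2% lower), and on day 5, 2860 (12.2%, with 5.13% higher and 7.1% lower), against 9 on day 3. The day 3 count ran from 1 to 1865 under the alternative settings, and those of days 1 and 5 are given for the main fit only. The counts are therefore no measure of the size of the response. Nanog rose by 0.79, 0.80 and 0.78 on the 3 days, and the difference of day 3 from day 1 was 0.01 ± 0.11 (adjusted p = 0.997). Of the 9 genes called on day 3, all had the same sign on day 1, where 7 were called, and 8 on day 5, where 4 were called (Nanog, Slc40a1, Ap3b2 and Gja1). The slopes were 0.35 on day 1 (exact permutation p = 0.1) and 0.10 on day 5 (p = 0.2). With the interquartile range as a covariate they were 0.30 and 0.043. Of the clusters that had fallen by day 5, 44.6% had a day 5 pulse change above 0.

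Only 2 genes were called as different between the pulses of days 3 and 1 (0.00855% of clusters). Mras had risen by 1.05 on day 1 and stood at 0.13 on day 3, a difference of -0.92 ± 0.10 (adjusted p = 6.67e-05). Tubb3, a neuronal beta tubulin, had risen by 0.68 on day 1 and stood at -0.06 on day 3 (difference -0.74, adjusted p = 0.0207). Without control replicate 1 or pulsed replicate 3 of day 3 the Tubb3 difference was -0.68 (adjusted p = 0.153) or -0.66 (adjusted p = 0.104), and it was no longer called, whereas Mras was called with any of the 6 arrays left out. Both had fallen over withdrawal, with changes of -2.40 and -1.94.

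Between days 5 and 3 the difference was called for 219 clusters (0.936%), 83 higher and 136 lower on day 5. Flvcr1 was among them: it was lowered on day 3 (-0.49) but stood at 0.09 on day 5 (difference 0.58, adjusted p = 0.0295). Meiob, a meiotic DNA-binding protein, stood at -0.09 on day 3 and fell by 1.76 on day 5 (difference -1.67, adjusted p = 0.0223). Obox6, an oocyte homeobox gene, stood at 0.03 and fell by 1.18 (difference -1.21, adjusted p = 0.00284). The count was 27 without control replicate 1, 45 without control replicate 3, 69 without pulsed replicate 2 and 20 without pulsed replicate 3 of day 3. Obox6 was called in each of these fits. Meiob missed the threshold without control replicate 1 (adjusted p = 0.0551), control replicate 3 (0.062) or pulsed replicate 3 (0.0641), and Flvcr1 without these or pulsed replicate 2 (adjusted p = 0.0518 to 0.0793). The day 5 controls held the 2 widest arrays of the series, with interquartile ranges of 2.94 and 2.93, and the part of that spread in these differences was not tested apart from the covariate fit, which called 862.

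The check against array spread moved calls and also some values, such as that of Hprt (0.40 to 0.55). The calls went from 1 higher and 8 lower to 22 higher and 18 lower. With each array's interquartile range in the fit, 40 clusters were called under the day 3 pulse (0.171%), and all 9 genes stayed among them. Their changes with the covariate ran from 0.82 for Nanog and -0.56 for Lpar4 to -0.30 for Gja1. The naive genes Prdm14, Zfp42 and Jam2 then counted as higher, as did Khdc3 (0.58, adjusted p = 0.0409), part of the maternal subcortical complex, and Car4, a membrane carbonic anhydrase, counted as lower (-0.37, adjusted p = 0.0314). Khdc3 and Car4 were chosen after their values were seen. Without the covariate Khdc3 differed by 0.53 (adjusted p = 0.0988) and Car4 by -0.42 (adjusted p = 0.0551), and both were separate between the groups.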

How the data were processed

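Each of the 30 samples of total RNA gave 1 array. The authors deposited log2 signals, for which the submitters' processing notes name RMA and Affymetrix Expression Console; versions, annotation release and genome build are not given in the sources used here. RMA equalizes array distributions, yet interquartile ranges still differed. Of 28815 clusters, 21780 had 1 symbol, 1605 several and 5430 none; the 23385 with a symbol were tested, and 238 of these repeat the values of another.

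All 30 arrays were fitted in limma 3.58.1 (R 4.3.3) with 1 mean per group, and p-values were adjusted by Benjamini-Hochberg over 23385 clusters. The script was tested on simulated data. Arrays have no read depth; 3 arrays per group limit the precision. Named genes are Nanog, up to 12 called rises and 12 called falls without overlap, list members, the core set and up to 6 differences between days; of a gene's several clusters, list and core members are given by the brightest and called genes and differences by the called cluster, which for Flvcr1, Zc3h6 and Rps21 is the dimmer one, a departure from the rule of using the brightest throughout. Alternatives were variance moderation, array weights, groups fitted, centring, quantile normalization, a filter on low signal, clusters without a symbol, array interquartile range, replicate block and each array left out. The members and the 29 lists were chosen with earlier results of these data known.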

Additional observations from a re-analysis of the deposited data

Results flagged for a closer look

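In 14 cases a test of the difference between the pulses of different days passed, and each is given as the log2 difference of the pulse changes, with no cause tested. Between day 3 and day 1 (day 3 minus day 1) these were Mras at -0.92 and Tubb3 at -0.74. Between day 5 and day 3 (day 5 minus day 3) the negative differences were Meiob at -1.67, Obox6 at -1.21, Zc3h6, a zinc finger gene, at -1.19, Rps21, a ribosomal protein gene, at -1.03, Gstm3, a glutathione transferase, at -1.001 and Dppa3 at -0.995. The positive differences were Igkv5-43, an immunoglobulin segment of low signal, at 1.15, Mir19b-1 at 0.75, Flvcr1 at 0.58, Krt8 at 0.57, Tubb3 at 0.55 and Krt7 at 0.37. Other clusters of Mras, Flvcr1, Obox6, Zc3h6, Rps21, Gstm3 and Dppa3 exist on the array, and their differences between days are not given here. For Flvcr1, Zc3h6 and Rps21 the other cluster is the brighter one, with means over all arrays of 8.36, 7.93 and 12.23. The clusters given for Zc3h6, Rps21 and Dppa3 may read copies of these genes, so their values are uncertain. With 1 of the 6 arrays of day 3 left out in turn, Mras, Obox6 and Zc3h6 stayed past the threshold in every fit, and each of the others missed it in at least 1.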

How the results depend on the processing

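Nanog kept its direction and its call in all 15 alternatives, at 0.77 to 0.84 when 1 array was left out, and the slope was 0.17 to 0.23 in the latter. The 9 calls (1 higher, 8 lower) became 43 (9 and 34) with trend and robust moderation, 1865 (710 and 1155) with array weights, 1 (1 and 0) with only the compared groups, 2 (1 and 1) after median centring, 26 (14 and 12) after quantile normalization, 60 (9 and 51) without the lowest 40 percent of signal and 40 (22 and 18) with the interquartile range as a covariate. With clusters lacking a symbol there were 9, 2 of them higher. Leaving out 1 array gave 1 to 4 calls, with 0 to 3 lower. The count of differences between days 3 and 1 (2) became 12 with trend, 1142 with weights, 1 with compared groups, 21 with quantiles, 10 without low signal, 61 with the covariate and 1 to 3 with 1 array left out. That between days 5 and 3 (219) became 614, 7199, 0, 811, 534 and 862 in the same order, 110 after centring and 20 to 273 with 1 array left out. The causes were not tested. Same-numbered arrays correlated at 0.22, 0.07 and -0.16. With 3 arrays per group these values cannot decide whether the numbers pair the samples, and the labels do not say. The replicate block gave 10 calls, 1 higher and 9 lower, and 8 of the 9 genes were among them. For values not called, the sign turned for Zc3h6 (0.019 with weights, 0.00085 after centring, 0.13 with the covariate), Obox6 (-0.0080 with quantiles) and Meiob (0.15 with the covariate). With 1 array left out, the sign also turned within the ranges of Zc3h6 (-0.12 to 0.055), Obox6 (-0.0037 to 0.047), Meiob (-0.21 to 0.0067), Tubb3 (-0.10 to 0.020) and Igkv5-43 (-0.43 to 0.099).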
